A study of Neotoma stephensi and Rattus norvegicus with 6 samples.

Results

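The genes described here are the amino acid and peptide transporters of the foregut. They were chosen by symbol, as every gene whose name starts with Slc1a, Slc3a, Slc6a, Slc7a, Slc15a, Slc36a, Slc38a or Slc43a, which gave 52 of the 15481 genes in the count files. RNA-Seq libraries of polyA-containing mRNA came from the fornix ventricularis, the nonglandular upper chamber of the stomach, of 3 Stephen's woodrats (*Neotoma stephensi*) and 3 lab rats (*Rattus norvegicus*, strain Sprague Dawley), 1 library per animal. All animals were female, and their ages are not given in the sources used here. The woodrats were caught in the wild, fed juniper foliage and dissected the day after reaching the laboratory, whereas the lab rats came from a breeder and lived for months on rat chow. The labels call all 6 animals virgin, but by the study's methods this is not known for the woodrats. Both foreguts are lined by keratinized squamous epithelium, and the woodrat foregut is known for a far denser fermenting microbial community. Species, diet, origin and microbes differed together and cannot be told apart.

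Solute carriers (Slc genes) encode membrane proteins that move small molecules across cell membranes, and the families chosen here mainly carry amino acids and short peptides. Some use the sodium gradient to load amino acids into the cell (Slc1, Slc6 and part of Slc38), some use protons (Slc15 and Slc36), and others exchange an amino acid inside the cell for one outside (much of Slc7). Many Slc7 proteins are light chains that reach the membrane only when bound to a heavy chain, Slc3a1 or Slc3a2. Slc15a1 and Slc6a19 are best known from the brush border of the small intestine, where they absorb peptides and neutral amino acids. The chosen symbols also include carriers of creatine, taurine and serotonin, and 1 gene that is no carrier at all, Slc7a6os, which lies on the strand opposite to Slc7a6.

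Each animal had between 5439642 and 7932637 counted reads, assigned to mouse genes because both species were aligned to mouse coding transcripts. Abundance is given as CPM, the usual depth-scaled read count, after TMM scaling, which corrects for a few abundant genes taking up a library. In any 1 library, 3 reads corresponded to between 0.355 and 0.586 CPM, which was taken as the detection floor. A read of either species can also fail to match a mouse transcript, and for a single gene such a loss and a lower abundance cannot be told apart. CPM values are not divided by gene length, so levels are compared between animals and not between genes. As these were pieces of stomach wall, fewer cells of a type and less RNA per cell cannot be told apart either. The summed CPM of 10 squamous epithelium markers was between 13990 and 37190 in woodrats and between 11900 and 17260 in lab rats, with all 10 detected in every animal. Krt13 and Krt4 made up most of the woodrat sum, with means of 14990 and 9556 CPM. Of the 10 log2 fold changes, woodrat minus lab rat, 6 were negative and 4 positive, with a median of -0.26, so the sum does not stand for most of these markers. The 7 smooth muscle markers summed to between 38300 and 118700 CPM in woodrats, woodrat 1 being the highest, and to between 10450 and 19380 CPM in lab rats. The 7 immune cell markers summed to between 14.5 and 41.9 CPM in woodrats and between 197 and 303 CPM in lab rats. Cd74 made up most of the lab rat sum, with a mean of 216 CPM, so the sum does not stand for each marker. Of the 5 tested, 4 were lower in woodrats, while Cd68 had 10.6 CPM in woodrats, against 11.3 in lab rats. Cd79a, not tested, had 0.953 CPM in woodrats, against 0.0827 in lab rats. The 7 glandular stomach markers that could be examined summed to between 6.74 and 11.5 CPM in each of the 6 animals, and 6 of them (Pgc, Tff2, Gkn1, Gkn2, Muc5ac and Muc6) had no reads in lab rats.

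Of the 52 members, 38 had at least 1 CPM in at least 3 animals and were tested with edgeR's quasi-likelihood test, with Benjamini-Hochberg adjustment over all 12603 tested genes. At a false discovery rate (FDR) below 0.01, 7 members (18.4%) differed between the species. Over all tested genes this share was 20.0%, which is close to the share of the members. Of the 7, 6 were lower in woodrats, namely Slc1a1, Slc1a6, Slc7a11, Slc6a9, Slc15a3 and Slc43a3, and Slc7a13 was higher. Among these, Slc1a1, Slc1a6, Slc7a11 and Slc7a13 passed the filter only through the 3 animals of the species where they were higher. The filter thus bears on this count and on its directions. Over all tested genes, 9.71% were lower in woodrats and 10.3% were higher. The median log2 fold change of the 38 members, woodrat minus lab rat, was -0.51, against 0.03 over all tested genes, and 24 of the 38 were negative. Slc1a1, Slc6a9 and Slc43a3 remained below the FDR threshold with any 1 animal left out. The count of 7 fell to 4 without woodrat 2 and to 3 without lab rat 1, without lab rat 2 or without lab rat 3.

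Every lab rat lay above every woodrat in 13 of the 38 tested members (34.2%), against 27.4% of all tested genes. Every woodrat lay above every lab rat in 5 members (13.2%), against 28.8% of all tested genes. In the remaining 20 members the species overlapped. The filter on low reads bears on these counts, because 5 of the 38 (Slc1a1, Slc1a6, Slc6a17, Slc7a11 and Slc7a13) passed it through the 3 animals of a single species. A further 9 members had an FDR between 0.01 and 0.05, which brought the share below 0.05 to 42.1%, against 39.9% of all tested genes.

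**Figure D1:**
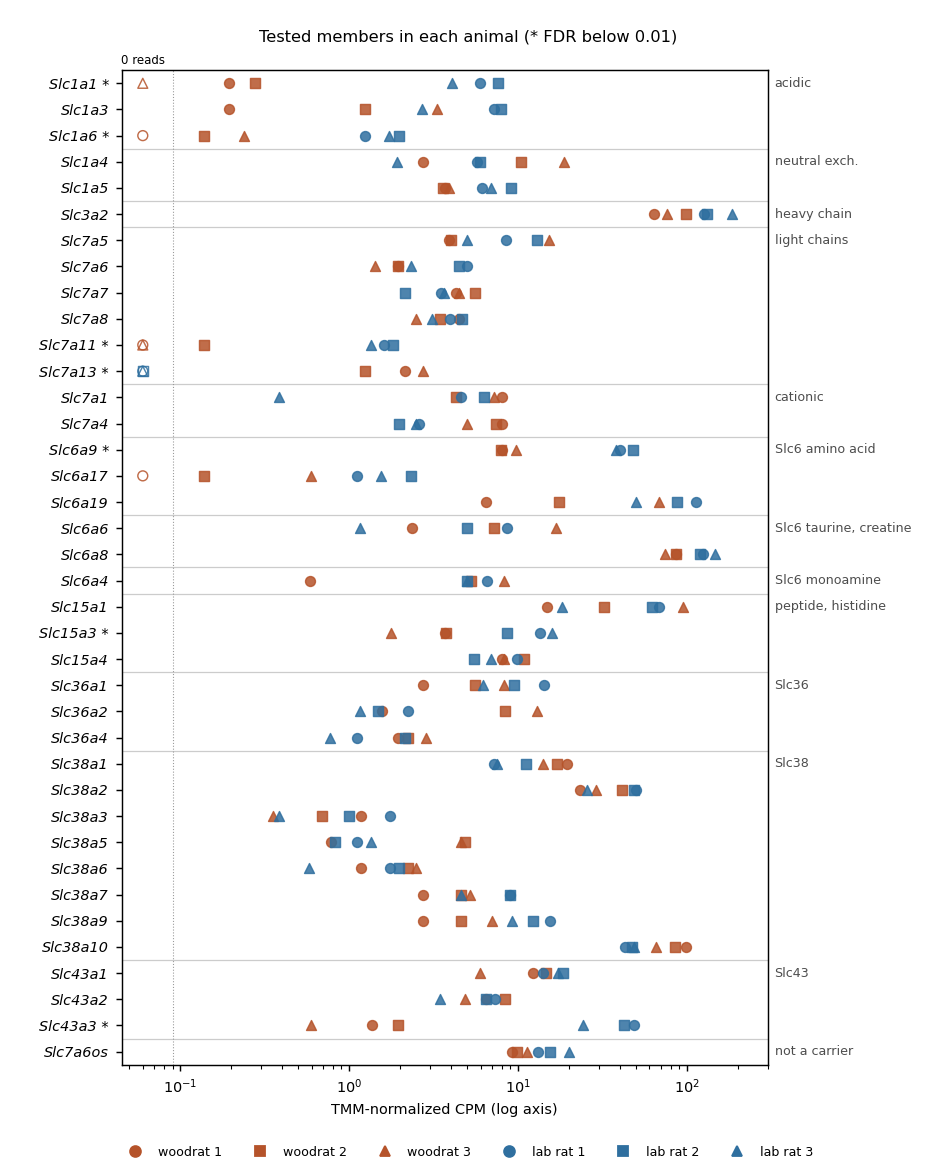
TMM-normalized CPM (log axis) of the 38 tested members in each of the 3 woodrats and 3 lab rats, grouped by role, with open symbols at the left edge for 0 reads and an asterisk for an FDR below 0.01. The lab rat symbols lie to the right of all woodrat symbols for Slc1a1, Slc1a6, Slc7a11, Slc6a9, Slc15a3 and Slc43a3, while for Slc15a1 the woodrats spread from 14.8 to 94.4 CPM around the lab rats.

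The acidic amino acid carriers of the Slc1 family take up glutamate and aspartate. All 3 that could be tested had negative log2 fold changes, and 2 of them passed the threshold (66.7%, against 20.0% of all tested genes). These 2, Slc1a1 and Slc1a6, entered the test only through the lab rats, so the filter bears on their direction. Slc1a1 (ENSMUSG00000024935.9), the glutamate and aspartate carrier of epithelia and neurons, had 1, 2 and 0 reads in woodrats 1, 2 and 3, against 48, 46 and 21 in lab rats 1, 2 and 3. All 3 woodrats lay below the detection floor, and the lab rats had 5.87 ± 1.78 CPM (SD, n = 3). This gave a log2 fold change of -5.16, with a standard error (SE) of 0.70 and an FDR of 0.00141 in edgeR. As the woodrats had 3 reads in total, the ratio of pooled, depth-scaled reads is given too, and it was 41.3 in favour of lab rats with an exact 95% interval of 13.8 to 203 that covers counting error only.

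Slc1a6 (ENSMUSG00000005357.8), a glutamate carrier otherwise known from the cerebellum, was low in both species, with 0, 1 and 2 reads in woodrats, against 10, 12 and 9 in lab rats. Every lab rat lay above every woodrat. Its log2 fold change was -3.37 (SE 0.70, FDR = 0.00661), and the pooled reads were 11.1 times higher in lab rats (exact 95% interval 3.47 to 56.9). The FDR was between 0.0123 and 0.0275 when woodrat 1, woodrat 2 or any lab rat was left out. Slc1a3, the glutamate carrier of glia and of several epithelia, had 1, 9 and 28 reads in woodrats, against 58, 48 and 14 in lab rats. Woodrat 3 overlapped with lab rat 3, and the log2 fold change of -1.82 (SE 0.73) had an FDR of 0.0781.

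The small neutral amino acid exchangers of the same family gave values of opposite sign, and neither passed the threshold. Slc1a4, which exchanges alanine, serine and cysteine, had 2.73, 10.4 and 18.8 CPM in woodrats, against 5.71, 5.96 and 1.93 in lab rats. The ranges overlapped, and the log2 fold change was 1.23 (SE 0.66, FDR = 0.170). Slc1a5, the main glutamine exchanger of proliferating cells, had 3.71, 3.61 and 3.91 CPM in woodrats, against 6.08, 9.10 and 6.93 in lab rats. The woodrats were nearly alike and all below the lab rats, with a log2 fold change of -0.97 (SE 0.33, FDR = 0.0460). Summed over the 5 Slc1a genes, woodrats reached 6.84, 15.7 and 26.3 CPM, against 26.2, 32.6 and 17.3 in lab rats. Slc1a1 supplied 0.969% of the mean summed reads in woodrats and 23.1% in lab rats, and Slc1a4 supplied 65.5% in woodrats and 17.9% in lab rats.

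The 2 heavy chains were present at very different depth. Slc3a2 (ENSMUSG00000010095.12), known as CD98 or 4F2hc, had the most reads of all members, with 328, 714 and 644 in woodrats and 1010, 792 and 956 in lab rats. This came to 79.8 ± 17.8 CPM in woodrats, against 147 ± 32.4 in lab rats (SD, n = 3). The species did not overlap, but the log2 fold change of -0.88 (SE 0.27) had an FDR of 0.0320 and did not pass the threshold. Slc3a1 (ENSMUSG00000024131.7), the rBAT chain of kidney and intestine, had 1 read in each woodrat and none in lab rats, and was thus below the floor in all 6 animals.

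Of the 8 light chains in the files, 6 were tested, 1 was higher in woodrats and 1 was lower (33.3% called, against 20.0% of all tested genes). Both, Slc7a13 and Slc7a11, entered the test only through the species where they were higher. Slc7a13 (ENSMUSG00000041052.8), an aspartate and glutamate carrier of the kidney that pairs with Slc3a1, had 11, 9 and 23 reads in woodrats and no reads in any lab rat. This corresponded to 2.15, 1.25 and 2.72 CPM in woodrats. Against the floor of 3 reads per lab rat library, the woodrat mean was at least 4.23-fold higher. The fitted log2 fold change of 6.79 (SE 1.05, FDR = 0.00401) depends on the prior count, since the lab rats were at 0. Without lab rat 1, lab rat 2 or lab rat 3 the FDR was between 0.0115 and 0.0133.

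Slc7a11 (ENSMUSG00000027737.9), the light chain of the cystine and glutamate exchanger that feeds glutathione synthesis, had 0, 1 and 0 reads in woodrats, against 13, 11 and 7 in lab rats. The lab rats stood at 1.59 ± 0.236 CPM (SD, n = 3), a low level, and the woodrats below the floor. The log2 fold change was -4.60 (SE 0.82, FDR = 0.00371), and the ratio of pooled reads was 33.4 with an exact 95% interval of 5.56 to 1360. Its FDR was between 0.0112 and 0.0144 without woodrat 2, lab rat 1, lab rat 2 or lab rat 3.

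The light chains that exchange large neutral or cationic amino acids did not pass the threshold. Slc7a5 (LAT1), the exchanger for leucine and other large neutral amino acids, had the most reads of the light chains, with 20, 29 and 129 in woodrats and 68, 78 and 26 in lab rats. Woodrat 3 was the highest animal and woodrat 1 the lowest, and the log2 fold change was -0.17 (SE 0.59, FDR = 0.844). Slc7a8, a related exchanger of wider range, was at -0.18 (FDR = 0.740), with 3.48 ± 1.00 CPM in woodrats, against 3.89 ± 0.778 in lab rats. Slc7a6 and Slc7a7, which export cationic amino acids in exchange for neutral ones, had log2 fold changes of opposite sign. Slc7a6 was at -1.16 (FDR = 0.0634) with all lab rats above all woodrats, and Slc7a7 at 0.63 (FDR = 0.211) with all woodrats above all lab rats. Slc7a6os (ENSMUSG00000033106.5) was at -0.67 (FDR = 0.0937).

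The cationic amino acid carriers import arginine and lysine without a heavy chain, and 2 of 4 were tested. Slc7a1, the general carrier of this kind, had 41, 31 and 61 reads in woodrats, against 37, 38 and 2 in lab rats. Lab rat 3 stood apart with 0.385 CPM, and the log2 fold change was 0.77 (SE 0.69, FDR = 0.403). Slc7a4, a relative whose substrate is not settled, had 8.01, 7.36 and 4.98 CPM in woodrats, against 2.61, 1.99 and 2.50 in lab rats. All woodrats lay above all lab rats, with a log2 fold change of 1.50 (SE 0.37) that missed the threshold at an FDR of 0.0137. Slc7a2, the carrier that macrophages and liver use for arginine, had 55 reads in woodrat 3 but between 0 and 5 in the other 5 animals, and was not tested.

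The Slc6 amino acid carriers bring in neutral amino acids together with sodium and chloride. The 3 that were tested had negative log2 fold changes, and Slc6a9 passed the threshold (33.3%, against 20.0% of all tested genes). Of the 3, Slc6a17 entered the test only through the lab rats, so the filter bears on its direction. Slc6a9 (ENSMUSG00000028542.16), the glycine transporter GlyT1, had 41, 57 and 82 reads in woodrats, against 325, 291 and 197 in lab rats. This came to 8.54 ± 1.01 CPM in woodrats, against 42.1 ± 5.33 in lab rats (SD, n = 3), with little spread within either species. The log2 fold change was -2.30 (SE 0.26, FDR = 0.000744), a 4.91-fold higher abundance in lab rats. Across all alternatives it stayed between -2.40 and -2.19.

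Slc6a19 (ENSMUSG00000021565.15), the neutral amino acid carrier B0AT1, had 33, 126 and 577 reads in woodrats, against 916, 526 and 261 in lab rats. These reads corresponded to 6.45, 17.5 and 68.3 CPM in woodrats and to 114, 87.0 and 50.3 CPM in lab rats. Woodrat 3 lay above lab rat 3 while the other woodrats lay below all lab rats. The log2 fold change was -1.43 (SE 0.72, FDR = 0.143), and without woodrat 3 it was -2.79 with an FDR of 0.00396. Slc6a17, a vesicular carrier of neurons, had 0, 1 and 5 reads in woodrats, against 9, 14 and 8 in lab rats, with a log2 fold change of -2.48 (FDR = 0.0332). Slc6a14 (ENSMUSG00000031089.7), the broad carrier ATB0,+, had 0, 2 and 5 reads in woodrats and none in lab rats.

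Among the Slc6 carriers of other small molecules, Slc6a8 (ENSMUSG00000019558.13), which imports creatine, had 82.3 ± 6.97 CPM in woodrats, against 129 ± 14.3 in lab rats (SD, n = 3). The lab rats were all higher, and the log2 fold change of -0.65 (SE 0.22) had an FDR of 0.0434. The taurine carrier Slc6a6 had 2.34, 7.22 and 16.7 CPM in woodrats, against 8.56, 4.96 and 1.16 in lab rats, with a log2 fold change of 0.83 (FDR = 0.413). The serotonin transporter Slc6a4 had 3, 38 and 70 reads in woodrats, against 53, 30 and 26 in lab rats, with a log2 fold change of -0.20 (FDR = 0.838). Both overlapped between the species. Slc6a11 (ENSMUSG00000030307.8), a GABA carrier of the brain, had 2, 14 and 109 reads in woodrats and none in lab rats. It was not tested, because only woodrats 2 and 3 passed the filter. Its woodrat mean of 5.08 CPM was at least 10.5-fold above the lab rat floor, but woodrat 3 supplied most of it, with 12.9 CPM against 0.391 CPM in woodrat 1.

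The peptide carriers of the Slc15 family move dipeptides, tripeptides or histidine with protons. Slc15a1 (ENSMUSG00000025557.9), the peptide carrier PepT1, had 76, 232 and 797 reads in woodrats, against 548, 376 and 95 in lab rats. In CPM this was 14.8, 32.2 and 94.4 in woodrats and 68.0, 62.2 and 18.3 in lab rats. Both the lowest and the highest value belonged to woodrats, and the log2 fold change was -0.07 (SE 0.67, FDR = 0.945). It was 0.35 without woodrat 1, 0.10 without woodrat 2, 0.23 without lab rat 1 and 0.13 without lab rat 2, so no direction can be given.

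Slc15a3 (ENSMUSG00000024737.2), a lysosomal peptide and histidine carrier of macrophages and dendritic cells, had 19, 27 and 15 reads in woodrats, against 109, 52 and 83 in lab rats. This came to 3.08 ± 1.13 CPM in woodrats, against 12.7 ± 3.76 in lab rats (SD, n = 3), without overlap. The log2 fold change was -2.05 (SE 0.42, FDR = 0.00626). Leaving out any 1 of the 6 animals raised the FDR above the threshold, to between 0.0109 and 0.0239. Of the 5 tested immune cell markers, 4 were also lower in woodrats, against 9.71% of all tested genes, while Cd68 overlapped between the species. Among the 4, Ptprc and Itgam passed the filter only through the lab rats, and Cd74 had 13.0 ± 9.58 CPM in woodrats, against 216 ± 58.6 in lab rats. Among woodrats, Slc15a3 was lowest in woodrat 3 (1.78 CPM), where the summed immune cell markers were highest (41.9 CPM). Among lab rats, Slc15a3 and Cd74 were highest in lab rat 3, whereas Csf1r and Ptprc were lowest there. The part of immune cells in the difference of Slc15a3 was not tested. Slc15a4, its lysosomal relative, had 9.04 ± 1.55 CPM in woodrats, against 7.40 ± 2.21 in lab rats, with a log2 fold change of 0.28 (FDR = 0.530).

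The proton-coupled carriers of the Slc36 family export or import small amino acids such as glycine and proline, and 3 of 4 were tested. Slc36a1, the lysosomal and brush border member, had 2.73, 5.55 and 8.29 CPM in woodrats, against 14.3, 9.43 and 6.16 in lab rats. The log2 fold change was -0.84 (SE 0.47, FDR = 0.189). Slc36a2, a carrier of glycine and proline known from kidney and muscle, had 1.56, 8.33 and 13.0 CPM in woodrats, against 2.23, 1.49 and 1.16 in lab rats. Woodrat 1 fell within the lab rats and the other woodrats lay above them. Its log2 fold change of 2.21 (SE 0.69, FDR = 0.0339) became 2.67 with an FDR of 0.00395 without woodrat 1. Slc36a4 was at 0.80 (FDR = 0.219). Of the mean summed Slc36a reads, Slc36a2 supplied 48.4% in woodrats and 12.3% in lab rats, and Slc36a1 supplied 35.0% and 75.2%.

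The Slc38 carriers of glutamine, alanine and other small neutral amino acids held no member past the threshold among the 8 tested, which had 4 positive and 4 negative log2 fold changes. With an unadjusted p below 0.05 stood Slc38a1, Slc38a5, Slc38a9 and Slc38a10, and DESeq2 called Slc38a9. Slc38a10 (ENSMUSG00000061306.14), a broadly expressed member, had the most reads. It had 99.2, 85.2 and 65.6 CPM in woodrats, against 42.9, 47.1 and 48.9 in lab rats. All woodrats lay above all lab rats, with a log2 fold change of 0.85 (SE 0.24, FDR = 0.0225). Slc38a1, a sodium-driven glutamine importer, was also higher in each woodrat, with 16.8 ± 2.78 CPM against 8.60 ± 2.16 CPM and a log2 fold change of 0.96 (FDR = 0.0358). Its close relative Slc38a2, the member that cells induce when amino acids run short, overlapped between the species with a log2 fold change of -0.41 (FDR = 0.359).

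Slc38a9, the lysosomal arginine sensor upstream of mTORC1, had 2.73, 4.58 and 6.99 CPM in woodrats, against 15.4, 12.2 and 9.25 in lab rats. Every lab rat was higher, with a log2 fold change of -1.35 (SE 0.41, FDR = 0.0292). Slc38a5, which moves glutamine in exchange for protons, had 4, 35 and 39 reads in woodrats, against 9, 5 and 7 in lab rats. Its log2 fold change of 1.66 (FDR = 0.0716) became 2.10 with an FDR of 0.00902 without woodrat 1. Slc38a3, Slc38a6 and Slc38a7 had log2 fold changes from -0.83 to 0.44 and FDR values from 0.135 to 0.536.

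The Slc43 family held the member with the lowest FDR of all 38. Slc43a3 (ENSMUSG00000027074.13), which despite its family carries purine nucleobases, had 7, 14 and 5 reads in woodrats, against 390, 255 and 126 in lab rats. In CPM this was 1.37, 1.94 and 0.592 in woodrats and 48.4, 42.2 and 24.3 in lab rats. The species were far apart, and the log2 fold change was -4.89 (SE 0.49, FDR = 0.000535), a 29.6-fold higher abundance in lab rats. Across all alternatives it stayed between -5.38 and -4.50. Slc43a1 and Slc43a2, the carriers LAT3 and LAT4 for leucine and other large neutral amino acids, had log2 fold changes of -0.60 (FDR = 0.225) and 0.17 (FDR = 0.752) and overlapped between the species. Slc43a3 thus supplied 63.1% of the mean summed reads of the family in lab rats and 6.91% in woodrats.

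**Figure D2:**
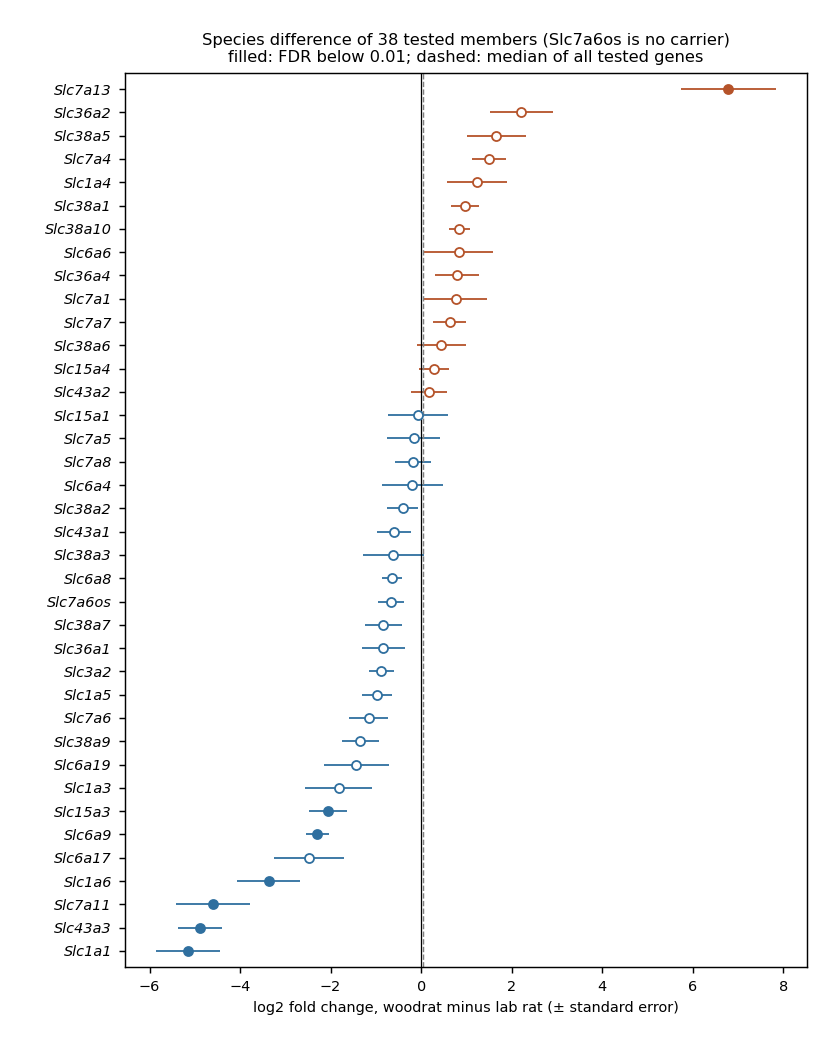
Log2 fold change, woodrat minus lab rat, of the 38 tested members with its standard error, ordered by size and filled at an FDR below 0.01. Slc7a13 at 6.79 is the filled point on the woodrat side, and the other 6 filled points lie between -5.16 (Slc1a1) and -2.05 (Slc15a3), among 14 positive and 24 negative values.

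The 14 members that were not tested were Slc3a1, Slc6a11, Slc6a12, Slc6a13, Slc6a14, Slc6a15, Slc6a18, Slc7a2, Slc7a3, Slc7a9, Slc7a10, Slc36a3, Slc38a4 and Slc38a11. Apart from Slc6a11 and Slc7a2, none of these had more than 8 reads in any animal, so a species difference was not detectable at this depth. No lab rat reads were counted for Slc3a1, Slc6a11, Slc6a14 and Slc7a13. Every gene in the files had woodrat reads, whereas 809 had none in lab rats, so the list cannot hold a transporter without woodrat reads. Well-known members of these families such as Slc6a20a, Slc7a12 and Slc15a2 were not analysed here.

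Summed by family, the Slc43a and Slc6a carriers had the lowest woodrat to lab rat ratios of mean CPM, at 0.310 and 0.526. The ratio was 0.545 for Slc3a, 0.641 for Slc1a, 0.852 for Slc15a, 1.05 for Slc7a, 1.19 for Slc36a and 1.23 for Slc38a. The Slc7a sum and the sum of all members include Slc7a6os, which is no carrier. It supplied 21.7% of the mean summed Slc7a reads in woodrats and 36.5% in lab rats, so the Slc7a ratio is not that of its carriers alone. All members together summed to 424, 530 and 622 CPM in woodrats and to 799, 771 and 677 CPM in lab rats, with every lab rat above every woodrat. These sums are given as a description without a test.

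Animals of the same species differed widely in some of these transporters. In 12 of the 38 tested members (31.6%), woodrat 3 had more than 3 times the CPM of woodrat 1, against 10.3% of all tested genes. Of these, 10 had reads in woodrat 1, namely Slc1a3, Slc1a4, Slc6a4, Slc6a6, Slc6a19, Slc7a5, Slc15a1, Slc36a1, Slc36a2 and Slc38a5, with ratios from 3.03 to 17.0. The other 2, Slc1a6 and Slc6a17, had no reads in woodrat 1 and 2 and 5 reads in woodrat 3. By the same rule, woodrat 1 was more than 3-fold above woodrat 3 in 2 members (5.26%), Slc1a1 and Slc38a3, both of few reads, against 3.98% of all tested genes. Lab rat 3 was the lowest lab rat in 8 of the 12 members, and also in 57.9% of all tested members and 46.1% of all tested genes. All 10 squamous epithelium markers were lowest in woodrat 1 and highest in woodrat 3, whereas among lab rats 4 of the 10 were lowest and 5 highest in lab rat 3. Among those lowest in lab rat 3, the basal layer regulator Trp63 had 3.32, 11.4 and 101 CPM in woodrats, against 87.5, 80.1 and 35.8 in lab rats, and the basal desmosomal cadherin Dsc3 had 5.27, 76.8 and 228 CPM and 82.5, 67.5 and 22.0 CPM.

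The smooth muscle myosin Myh11 ran the other way among woodrats, with 33317, 18451 and 12073 CPM in woodrats 1, 2 and 3, and had 2826, 4457 and 4532 CPM in lab rats. The keratin Krt5 kept the woodrat order of Trp63 (250, 513 and 794 CPM) but not that of the lab rats (686, 577 and 740 CPM). The intestinal markers in the files, Fabp2 and Lct, summed to between 0.278 and 2.15 CPM in all animals. The part of epithelial and muscle content in the spread of Slc15a1 and Slc6a19 was not tested.

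**Figure D3:**
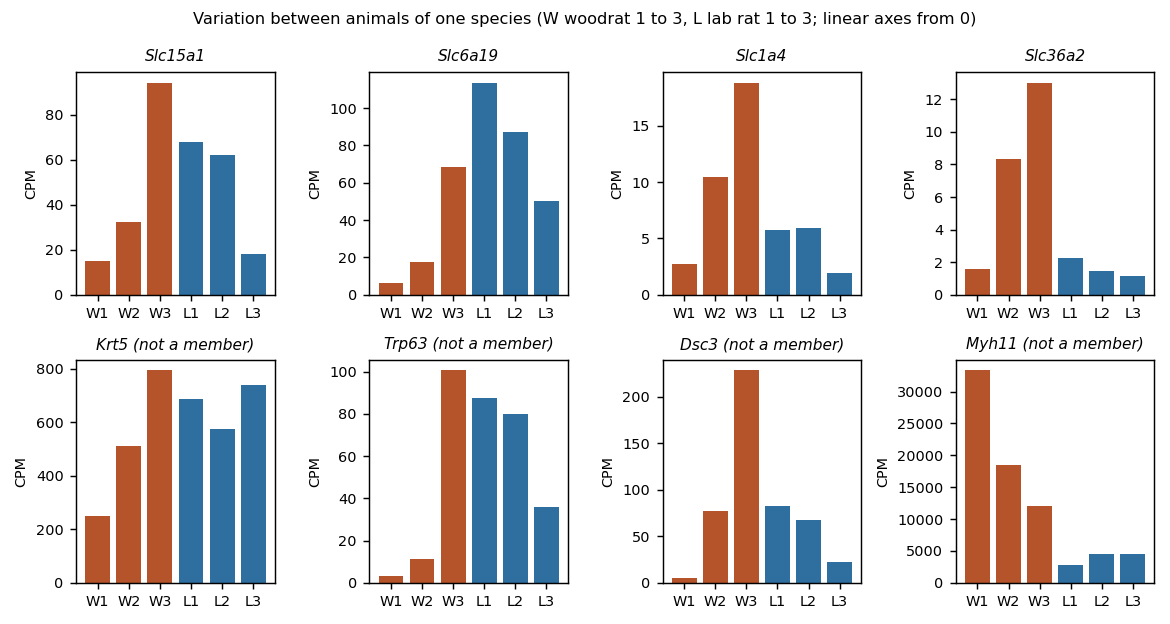
CPM (linear axes from 0) of 4 transporters and of Krt5, Trp63, Dsc3 and Myh11 in woodrats 1 to 3 (W) and lab rats 1 to 3 (L), 1 bar per animal. Slc15a1, Slc6a19, Krt5 and Trp63 are lowest in woodrat 1, while Myh11 is highest there at 33317 CPM.

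Lists of genes that act with these transporters were compared in the same test. They were chosen with earlier results of these data known, so their counts are a description. Of the 8 tested genes among other amino acid carriers and partner proteins, 1 passed the threshold (12.5%, against 20.0% of all tested genes). Slc16a10, the carrier TAT1 of aromatic amino acids, had 7.42, 12.6 and 5.21 CPM in woodrats, against 0.124, 0 and 0.385 in lab rats. The log2 fold change was 5.58 (SE 0.74, FDR = 0.00127), and pooled reads were 53.6 times higher in woodrats (exact 95% interval 18.0 to 262). This amino acid carrier, which lies outside the families chosen here, passed the filter only through the woodrats, where it was higher. Of the 5 tested peptidases of the cell surface, which release amino acids from peptides outside the cell, 2 were higher in woodrats and none lower (40.0%, against 20.0% of all tested genes). Ggt1, which cleaves glutathione, had 7.27 ± 3.58 CPM in woodrats, against 0.138 ± 0.126 in lab rats, or 5.42 on the log2 scale (FDR = 0.00147). Its pooled reads, of which lab rats had 3, were 50.5 times higher in woodrats (exact 95% interval 17.0 to 247). Ggt1 also passed the filter only through the woodrats, so the filter bears on the count and direction of the peptidases. Aminopeptidase N (Anpep) had 24.1 ± 4.48 CPM and 5.45 ± 1.30 CPM, a log2 fold change of 2.14 (FDR = 0.00184).

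Of the 18 genes of the ATF4 response to amino acid shortage and of serine and proline synthesis, all were tested, and 6 (33.3%) were lower in woodrats and 0 higher, against 9.71% lower and 10.3% higher over all tested genes. Their median log2 fold change was -0.67, against 0.03 over all genes, and 15 of 18 were negative. The study had already reported L-serine biosynthesis as overrepresented in lab rats, so the count gives no independent evidence on the ATF4 response. Trib3, an ATF4 target that feeds back on ATF4, had 0.801 ± 0.194 CPM in woodrats, against 10.6 ± 0.921 in lab rats (log2 fold change -3.73, FDR = 0.000563). It passed the filter only through the lab rats. The serine synthesis enzymes Phgdh and Psat1 followed with log2 fold changes of -2.18 (FDR = 0.00162) and -1.94 (FDR = 0.00180). Phgdh had 18.2, 31.1 and 31.5 CPM in woodrats, against 101, 108 and 158 in lab rats. The other genes below the threshold were Psph, Shmt2 and Cebpb. The 3 genes with positive values were Nupr1 at 2.03 (FDR = 0.0465), Ddit4 at 0.37 (FDR = 0.520) and Chac1 at 0.16 (FDR = 0.856), none past the threshold. Atf4 itself was at -0.76 (FDR = 0.0957) and asparagine synthetase (Asns), a classical ATF4 target, at -1.15 (FDR = 0.0651), neither past the threshold.

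Of the 31 tested genes of amino acid sensing by mTORC1, the kinase complex that couples growth to amino acids, 5 passed the threshold (16.1%, against 20.0% of all tested genes), 3 higher and 2 lower in woodrats. Mtor itself had 139 ± 8.78 CPM in woodrats, against 39.8 ± 9.30 in lab rats (log2 fold change 1.80, FDR = 0.00159), and Gatsl2 was at 2.12 (FDR = 0.00992). Nprl2, part of the complex that restrains mTORC1, was at -1.63 (FDR = 0.00169). The count of 5 fell to 1 without woodrat 2, to 2 without lab rat 2 or lab rat 3, and to 3 without woodrat 1 or lab rat 1.

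Of the 12 genes of glutathione and glutamine use, 2 were higher in woodrats and 1 was lower, together 25.0% against 20.0% of all tested genes. Glutamate dehydrogenase (Glud1) was at 1.24 (FDR = 0.00758) and alanine aminotransferase (Gpt) at -1.98 (FDR = 0.00460). None of the 12 was past the threshold without woodrat 2, lab rat 1, lab rat 2 or lab rat 3. The glutathione synthesis genes Gclc, Gclm and Gss had log2 fold changes of -1.08, -1.27 and -1.22 with FDR values from 0.0122 to 0.0327.

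**Figure D4:**
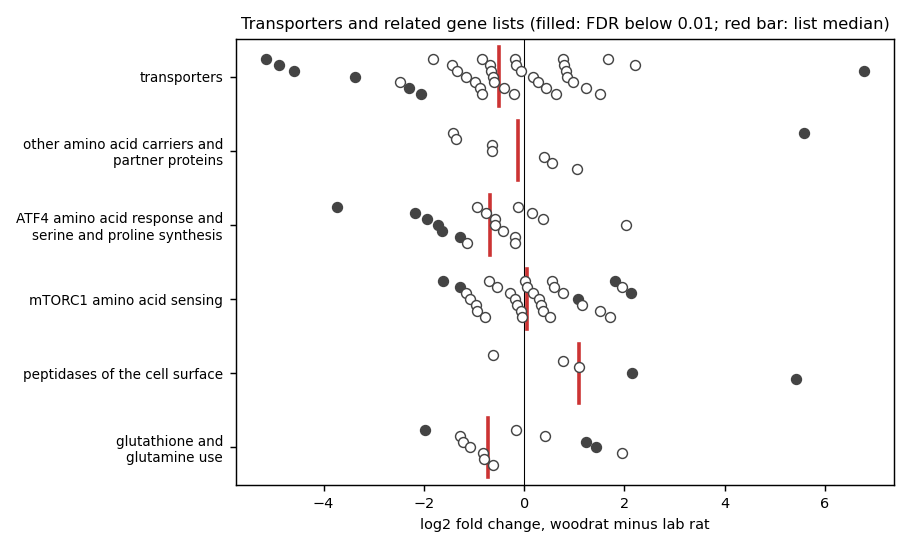
Log2 fold change, woodrat minus lab rat, of each tested transporter and of the tested genes of 5 related lists, with filled points at an FDR below 0.01 and a red bar at each list's median. The medians were -0.51 for the transporters, -0.67 for the ATF4 and serine synthesis list and 1.09 for the surface peptidases.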

How the data were processed

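The authors prepared strand-specific libraries, trimmed read pairs with Trimmomatic, merged them with FLASH, aligned them with cross_match to mouse coding transcripts (GENCODE M7) and deposited raw counts of uniquely assigned reads per gene, 1 file per animal. Tool versions are not given in the sources used here, and the submitters' processing notes also name a mouse genome build, which was not used here. Species and replicate numbers came from the sample titles. Members and lists were chosen with earlier results of these data known.

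A gene needed 1 CPM or more in 3 or more animals, which left 12603 of 15481 genes, and these were scaled by TMM and tested with glmQLFTest in edgeR 4.0.16 (R 4.3.3, the quasi-likelihood method used before version 4, prior count 0.125, species as the only term). Fold changes are woodrat minus lab rat on the log2 scale. Standard errors are the size of the fold change divided by the square root of F. On counts simulated for this comparison over 12603 genes, 79 of 110 changes of 2 and 87 of 90 changes of 3 on the log2 scale were recovered, with 1 false call. The simulation gave all genes 1 common dispersion and changed few of them. It thus does not show recovery or false calls for genes that vary more between animals. Replicates were not repeats of a library, since chi-square over its degrees of freedom was 10.1 or more for each pair.

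Members past the FDR, the tested member of each role with the most reads, both heavy chains and members without reads in a species were named by rule, as were up to 3 called genes per list, while other members and marker genes were named after their values were seen. Intervals and floors cover counting error only. Some genes of the lists are not reported here. Reads of close paralogs may be split between them. Positions and sequences are not given, as no reference was used here. Alternatives were other filters, scalings, dispersion methods, thresholds, DESeq2 1.42.0, a replicate block and leaving out each animal.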

Additional observations from a re-analysis of the deposited data

How the results depend on the processing

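The count of 7 differing members (6 lower and 1 higher in woodrats) stayed between 6 and 7 without a filter, with reads in both species required, with DESeq2's size factors, with library totals, with the edgeR 4 method and with robust estimation, although requiring reads in both species left 0 higher members because Slc7a13 was removed. The filter at 5 CPM left 24 members and 3 calls, all 3 lower and 0 higher, since Slc1a1, Slc1a6, Slc7a11 and Slc7a13 were no longer tested. DESeq2 called 10 members, 3 of them higher (Slc7a4, Slc36a2 and Slc7a13). At an FDR below 0.05 there were 16, 11 lower and 5 higher. Leaving out each animal gave from 3 to 7 calls, from 3 to 6 lower and from 0 to 3 higher. Over all genes the count of 2516 became 3916 under DESeq2, 1813 with library totals and 716 with the replicate block. With library totals, 44.7% of calls were higher in woodrats, against 51.4%.

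Animals with the same number did not deviate together (correlations of -0.289, -0.0881 and -0.279). The sample titles give only the number. As the deviations were taken from means of 3 animals per species, these values cannot show whether same-numbered animals shared a batch. With the replicate block, 3 members were called, 3 lower and 0 higher, namely Slc1a1, Slc6a9 and Slc43a3. The block left 0 genes of other carriers and partners, 3 of the ATF4 list, 0 of mTORC1 sensing, 1 peptidase and 1 gene of glutathione and glutamine use.

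For these 5 lists the main counts were 1, 6, 5, 2 and 3. DESeq2 gave 2 for other carriers, 8 for mTORC1 sensing and 7 for glutathione and glutamine use. At an FDR below 0.05 these were 2, 12 and 8. Library totals gave 2 for mTORC1 sensing and 1 for glutathione and glutamine use. Leaving out each animal gave from 1 to 2, from 4 to 6, from 1 to 4, from 1 to 3 and from 0 to 3.

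Slc15a1 changed sign without woodrat 1 (0.35), woodrat 2 (0.10), lab rat 1 (0.23) and lab rat 2 (0.13), Slc7a5 without woodrat 1 (0.14), woodrat 2 (0.10) and lab rat 2 (0.21), and Slc6a4 without woodrat 1 (0.29). Over all 6 leave-outs, the lowest values being those without woodrat 3, they ranged from -1.07 to 0.35 for Slc15a1, from -1.15 to 0.21 for Slc7a5 and from -0.86 to 0.29 for Slc6a4. The cause was not tested. The family ratios moved by less than their spread between animals under each alternative tried. Depth limits members under 1 CPM, where a few reads decide a value. The alternatives for lists and family sums were chosen after seeing the data.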
